A study of Homo sapiens with 20 samples.

Results

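The sterol and lipid synthesis genes described here are 30 genes of the pathway controlled by the sterol regulatory element binding proteins (SREBPs). They were taken by gene symbol: 18 genes of cholesterol synthesis, 7 genes of fatty acid synthesis and desaturation, and 5 genes of SREBP regulation and sterol transport. All probes whose accession maps to one of these symbols were used, which gave 35 probes, and all 30 genes were among the 22069 genes tested. All members were called well above background on every array, so that no member entered the test through 1 condition alone.

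The genes were measured in HepaRG, an established line of human hepatoma. Its progenitor cells turn, over weeks of culture, into a mixture of hepatocyte-like and biliary-like cells. Total RNA labelled with Cy3 was hybridised in one color to 20 arrays, 4 for each of 5 conditions, from 4 independent experiments. All conditions were cultured in William's E medium with 10% fetal bovine serum, insulin and 50 µM hydrocortisone. D4 and D15 cells were collected 4 and 15 days after seeding, without DMSO. D30 − DMSO cells were kept without DMSO to day 30, and D30 + DMSO cells received 2% DMSO from day 15 to day 30. D34 ± DMSO cells were D30 + DMSO cells from which DMSO was removed for 4 days. As the cultures are mixtures, fewer cells of a type and less RNA per cell cannot be told apart in any value below.

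Values are log2 of the processed signal relative to the 75th percentile of the array, so that 0 is the 75th percentile and a difference of 1 is 2-fold. Levels are compared between conditions and never between probes. Differences come from limma, fitted over all 22069 genes and 20 arrays, with its standard error (SE) and its adjusted p. A gene was called when the change exceeded 2-fold and limma's adjusted p (Benjamini-Hochberg) was under 0.005. The 75th percentile of an array lay between 283 and 526 intensity units, between 61.1% and 74.2% of its spots were well above background, and the number of arrays limits the precision. The arrays lie on 4 slides, and the deviations of arrays of different conditions from their condition means correlated with a median r of 0.39 on the same slide and of -0.18 on other slides. The labelled cell type was checked with 8 hepatocyte plasma protein and transcription factor genes. The D15 level of all 8 was called higher than that of D4. At D4, 7 of the 8 were well above background on all arrays, and HNF4A reached that mark on none.

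Cholesterol is built from acetyl-CoA through mevalonate, isoprenoid diphosphates, squalene and lanosterol, and a series of enzymes of the endoplasmic reticulum then trims lanosterol to cholesterol. The SREBP precursors sit in the same membrane bound to SCAP, and INSIG proteins hold this complex back while sterols are plentiful. When sterols fall, SCAP carries the precursor to the Golgi, where proteases release the part that enters the nucleus and binds sterol regulatory elements. SREBP2, encoded by SREBF2, acts mainly on cholesterol genes and SREBP1c, from SREBF1, mainly on fatty acid genes. SREBPs act on promoters together with NF-Y, which binds the CCAAT box, and with Sp1, which binds the GC box. The liver makes cholesterol both for its own membranes and for bile acids and lipoproteins.

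Promoters are described because the proteins named above act there, and sequences are printed for some of the members that changed with DMSO. RefSeq promoters on GRCh38.p14, from 250 bases before to 50 bases after a listed start site, were found for 26 of the 30 members, in 35 entries. ACAT2, FASN, FDFT1 and SQLE had no entry. The letters CCAAT, on either strand, occurred in 13 of the 15 cholesterol genes with an entry, in 4 of the 6 fatty acid genes and in 3 of the 5 genes of regulation and transport. They occurred in 39.7% of all 27305 genes with an entry. The GC box letters GGGCGG, on either strand, occurred in 25 of the 26 members and in 48.3% of all genes. The sterol regulatory element letters TCACNCCAC, on either strand, occurred in SREBF2 and in no other member, against 1.39% of all genes. With 1 more base left free, TCANNCCAC, which includes all TCACNCCAC matches, occurred in SREBF2, INSIG1 and ACLY and in 4.74% of all genes. None of the 15 cholesterol genes held either form in this window. These matches are descriptions of letters in a short window.

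The first set shows the 250 bases before the start site for genes with 1 listed start, 5′ to 3′ in the direction of the gene, with CCAAT or its reverse complement ATTGG in capitals. TM7SF2 and MVK were called higher with DMSO, and EBP and MVD were higher by less than 2-fold at an adjusted p under 0.005 in limma. LSS and FADS1, which also had 1 listed start and were higher at that adjusted p, are not printed. LSS held 1 such box and FADS1 none. HSD17B7, shown for comparison, also holds the letters and was not called. The positions are chr11:65111622-65111871 (+) for TM7SF2, chr12:109573544-109573793 (+) for MVK, chrX:48521558-48521807 (+) for EBP, chr16:88663092-88663341 (-) for MVD and chr1:162790452-162790701 (+) for HSD17B7.
TM7SF2: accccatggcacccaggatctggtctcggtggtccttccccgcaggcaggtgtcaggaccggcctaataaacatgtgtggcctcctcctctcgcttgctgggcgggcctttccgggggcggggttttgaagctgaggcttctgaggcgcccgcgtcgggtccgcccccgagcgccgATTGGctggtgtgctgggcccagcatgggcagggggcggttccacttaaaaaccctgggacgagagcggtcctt
MVK: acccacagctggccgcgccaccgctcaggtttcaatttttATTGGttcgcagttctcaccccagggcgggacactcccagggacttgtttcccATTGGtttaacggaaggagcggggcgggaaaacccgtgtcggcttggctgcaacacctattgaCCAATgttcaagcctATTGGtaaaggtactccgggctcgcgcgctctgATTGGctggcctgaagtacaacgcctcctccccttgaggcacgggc
EBP: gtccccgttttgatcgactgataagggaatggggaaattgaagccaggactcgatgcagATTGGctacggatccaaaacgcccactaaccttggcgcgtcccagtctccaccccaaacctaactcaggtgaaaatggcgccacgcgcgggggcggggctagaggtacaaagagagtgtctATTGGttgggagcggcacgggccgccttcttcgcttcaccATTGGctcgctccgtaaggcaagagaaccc
MVD: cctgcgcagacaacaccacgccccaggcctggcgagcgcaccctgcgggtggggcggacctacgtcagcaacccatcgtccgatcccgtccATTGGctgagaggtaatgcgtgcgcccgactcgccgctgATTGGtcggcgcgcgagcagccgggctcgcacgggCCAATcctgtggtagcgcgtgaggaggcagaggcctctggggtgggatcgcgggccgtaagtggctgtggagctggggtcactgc
HSD17B7: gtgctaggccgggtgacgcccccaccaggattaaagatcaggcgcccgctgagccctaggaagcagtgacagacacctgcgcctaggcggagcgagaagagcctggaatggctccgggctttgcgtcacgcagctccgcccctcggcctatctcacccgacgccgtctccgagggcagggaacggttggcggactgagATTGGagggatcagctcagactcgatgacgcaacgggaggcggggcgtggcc
MVK held 5 of these boxes before its start site, EBP and MVD held 3 each, and TM7SF2 held 1. HSD17B7 held 1 as well. Other cholesterol genes with 1 listed start that were not higher at that adjusted p are not printed. Among these NSDHL held 5 of the boxes, MSMO1 4 and FDPS 3, and CYP51A1 and PMVK held none. The relation between the number of these boxes and the change with DMSO was not tested.

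The SREBF2 stretch, chr22:41832922-41833030 (+), is shown because it carries the sterol regulatory element letters, in capitals, which begin at position -133 from the start site.
SREBF2: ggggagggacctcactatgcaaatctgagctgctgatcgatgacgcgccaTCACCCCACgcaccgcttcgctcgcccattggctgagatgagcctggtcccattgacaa

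**Figure D1:**
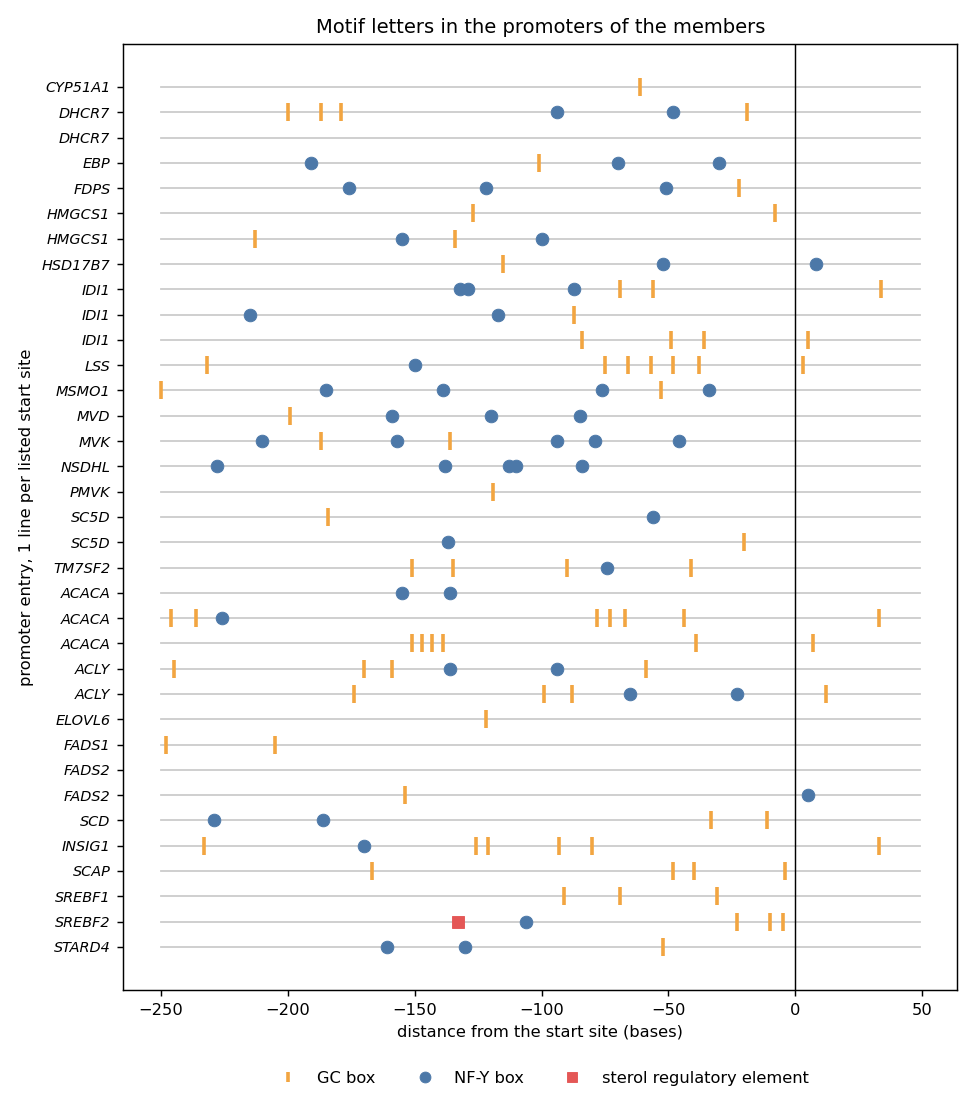
Positions of motif letters in the 35 promoter entries of 26 members, by distance from the start site in bases, with 1 line per listed start site. NF-Y box letters (circles) occur in 13 of the 15 cholesterol genes, GC box letters (bars) in 25 of the 26 members, and the sterol regulatory element letters (square) in SREBF2.

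Among the 3 groups of members, the cholesterol genes differed most on addition of DMSO. In D30 + DMSO against D30 − DMSO, 5 of the 18 cholesterol genes were called higher and none lower, whereas 1.74% of all genes were called higher and 4.2% lower. The called genes were TM7SF2, DHCR7, IDI1, MVK and FDFT1, with rises between 2.07-fold and 3.00-fold. None of the 7 fatty acid genes and none of the 5 genes of regulation and transport was called. An unadjusted p below 0.05 in limma was found for 3 genes of each group, as for 6309 of the 22069 genes. The median change was 0.84 for the cholesterol genes, 0.21 for the fatty acid genes and 0.44 for the genes of regulation and transport, against 0.03 for all genes. Of the 18 cholesterol genes, 17 had a fitted change above 0, as had 6 of the 7 fatty acid genes.

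Without a limit on the fold change, at an adjusted p below 0.005, 8 cholesterol genes and 2 fatty acid genes were higher with DMSO, 10 of the 30 members, against 3.63% of all genes. Those added by this threshold, chosen after the data were seen, were EBP, LSS, MVD, FASN and FADS1. No member was lower.

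Among the enzymes of the mevalonate arm, MVK and IDI1 rose. MVK phosphorylates mevalonate. Its 4 arrays of D30 − DMSO had values of 4.64, 4.53, 4.47 and 3.96, and those of D30 + DMSO had values of 5.76, 5.36, 5.64 and 5.21. The groups did not overlap, and the difference of 1.09 (SE 0.21, n = 4 per condition) was 2.13-fold, with limma's adjusted p = 0.00093. IDI1 interconverts the smallest isoprenoid building blocks. It had 3.76, 3.63, 3.48 and 3.19 in D30 − DMSO and 4.56, 4.51, 4.85 and 4.51 in D30 + DMSO. The 3 other arrays with DMSO lay close together below replicate 3. The difference of 1.09 (SE 0.22) had an adjusted p of 0.0014 in limma. Both calls ended when D30 − DMSO replicate 4, the lowest array of its group for both genes, was left out, with changes of 0.95 for MVK and 0.98 for IDI1. The IDI1 call also ended without D30 + DMSO replicate 3 (1.01, adjusted p = 0.0073 in limma) and when the slide was a block (0.96). Under the methods' t-test both calls ended, with adjusted p-values of 0.015 for MVK and 0.0063 for IDI1.

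MVD, which decarboxylates mevalonate diphosphate, had values of 1.93, 1.75, 1.81 and 1.73 without DMSO and of 3.19, 2.56, 2.60 and 2.71 with DMSO. Every array with DMSO lay above every array without it, and the difference of 0.96 (adjusted p = 0.0036 in limma) stayed just under 2-fold. HMGCS1 makes the HMG-CoA from which mevalonate is formed. Its values of 2.74, 2.54, 2.48 and 1.99 in D30 − DMSO and of 3.36, 3.40, 3.36 and 2.88 in D30 + DMSO did not overlap, with a difference of 0.81 and an adjusted p of 0.019 in limma. PMVK, the kinase after MVK, FDPS, the farnesyl diphosphate synthase, and ACAT2, the cytosolic thiolase of the first step, were not called. Their differences were 0.24 for PMVK, 0.51 for FDPS and 0.45 for ACAT2.

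At the entry into the sterol branch, FDFT1, the squalene synthase, rose. Its arrays had 3.07, 2.99, 3.18 and 3.31 without DMSO and 4.12, 4.06, 4.21 and 4.36 with DMSO. The lowest array with DMSO was thus well above the highest without it, and the difference of 1.05 (SE 0.17) was 2.07-fold, with limma's adjusted p = 0.00022. As this lies near the 2-fold limit, the call ended with the slide as a block (0.87), with the scan session as a block (0.98), with normexp background correction (0.9997) and without D30 + DMSO replicate 4 (0.99). In each of these fits the adjusted p of limma stayed below 0.005. LSS, which closes the sterol rings, had values of 2.93, 2.81, 3.13 and 3.32 without DMSO and of 3.90, 3.70, 3.95 and 4.07 with it. Its difference was 0.86 (adjusted p = 0.0034 in limma), and the LSS probe of lower mean signal passed the 2-fold limit with 1.07. SQLE, the squalene epoxidase, had a difference of 0.38 and was not called.

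The enzymes after lanosterol held both the largest rises and differences near 0. TM7SF2 reduces the sterol that CYP51A1 has demethylated. Its values were 1.83, 1.68, 1.72 and 1.87 in D30 − DMSO and 3.59, 3.18, 3.22 and 3.44 in D30 + DMSO. The 2 groups were separated by more than the whole range of either, and the difference of 1.58 (SE 0.19) was 3.00-fold, with limma's adjusted p = 1.03e-05. DHCR7, which reduces the immediate precursor of cholesterol, had 5.72, 5.57, 5.65 and 5.50 without DMSO and 6.90, 6.66, 6.91 and 6.67 with DMSO. The difference was 1.18 (SE 0.16), 2.26-fold, with limma's adjusted p = 3.11e-05. The calls of TM7SF2 and DHCR7 were kept in all 34 alternative fits of this comparison that were run at the adjusted p of 0.005.

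EBP, the sterol isomerase, had values between 6.25 and 6.51 in D30 − DMSO and between 7.14 and 7.52 in D30 + DMSO. Its difference of 0.91 had an adjusted p of 0.00043 in limma and stayed under 2-fold. MSMO1, which oxidises the methyl groups of lanosterol, had values between 1.05 and 1.41 without DMSO and between 1.82 and 2.53 with it, a difference of 0.91 that did not pass, with limma's adjusted p = 0.051. Smaller differences that did not pass were 0.36 for CYP51A1, the lanosterol demethylase, and 0.48 for NSDHL, a sterol dehydrogenase. HSD17B7, the ketoreductase that works with NSDHL, had a difference of 0.07, and SC5D, the sterol desaturase whose product DHCR7 uses, had one of -0.10.

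**Figure D2:**
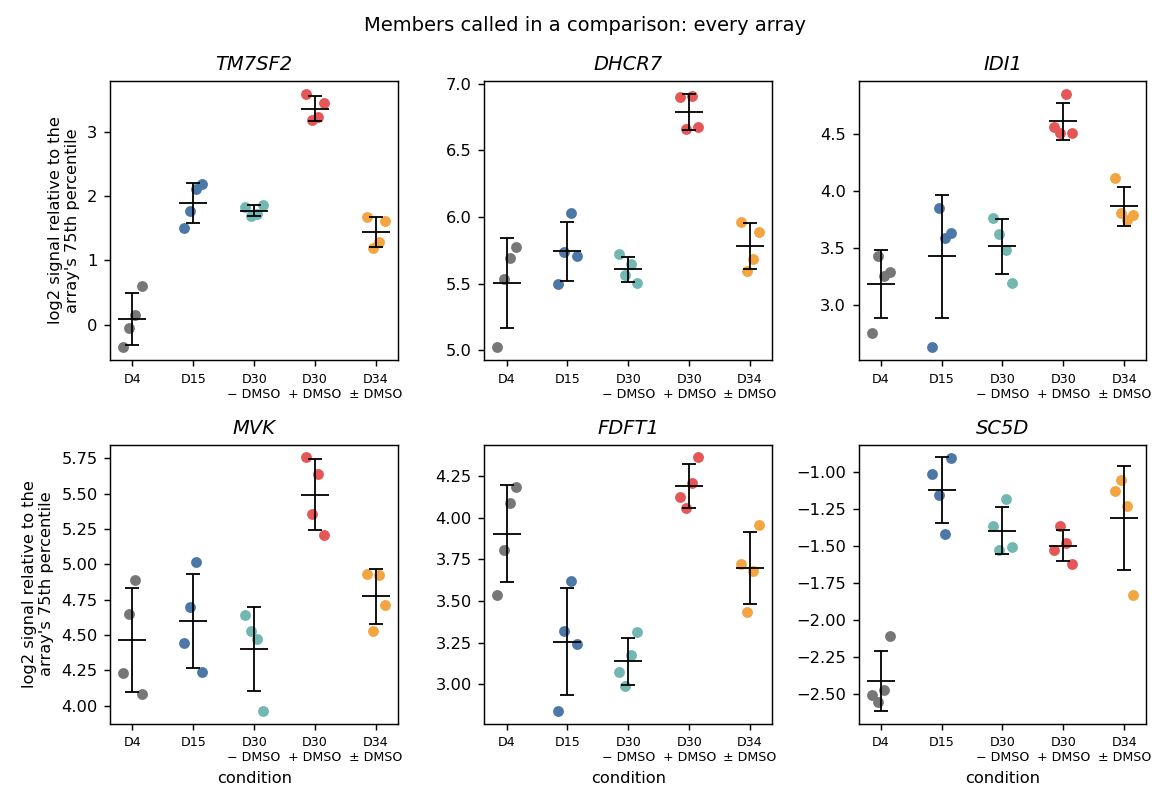
Log2 signal relative to the 75th percentile of the array for the 6 members called in any comparison, by condition. Points are the 4 arrays of a condition, and the lines with bars are the mean and SD. TM7SF2, DHCR7, IDI1, MVK and FDFT1 are highest in D30 + DMSO, whereas SC5D is lowest at D4.

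Of the fatty acid genes, FASN and FADS1 were higher with DMSO by less than 2-fold. FASN, the fatty acid synthase, had values of 4.18, 4.17, 4.37 and 4.64 in D30 − DMSO and of 5.30, 5.04, 5.22 and 5.36 in D30 + DMSO, with a difference of 0.89 (SE 0.19, adjusted p = 0.0020 in limma). FADS1, a desaturase of polyunsaturated fatty acids, had 4.10, 4.20, 4.30 and 4.21 without DMSO and 4.82, 4.91, 4.85 and 4.52 with it. In neither gene did the groups overlap, and the difference of FADS1 was 0.57 (SE 0.12, adjusted p = 0.0022 in limma). FADS2, the neighbouring desaturase gene, had a difference of 0.32 and did not pass. ACACA, which commits acetyl-CoA to fatty acids, SCD, which makes monounsaturated fatty acids, ELOVL6, an elongase, and ACLY, which makes cytosolic acetyl-CoA, had differences of 0.14, 0.21, -0.05 and 0.17, in that order. Both ACACA probes were not called, with 0.14 and 0.08.

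INSIG1, the SREBP target that retains SCAP, varied more between the arrays of D30 − DMSO and of D30 + DMSO than the enzymes did. It had 5.00, 4.33, 4.22 and 3.58 in D30 − DMSO and 5.94, 5.26, 5.04 and 4.64 in D30 + DMSO. The groups overlapped through D30 − DMSO replicate 1, and the difference of 0.94 (SE 0.29) did not pass, with limma's adjusted p = 0.029. Within the slides that hold both conditions the difference was 0.60 on slide 3 and 1.26 on slide 4, each with 1 array of D30 − DMSO. With the scan session as a block INSIG1 was called with 1.08 (limma's adjusted p = 0.0011). With the slide as a block it had 0.96 at an adjusted p of 0.0040 in limma.

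Neither gene of the SREBPs themselves passed the test. SREBF1 had 5.58, 5.25, 5.36 and 5.57 without DMSO and 6.11, 5.82, 6.09 and 5.96 with DMSO, a difference of 0.56 (adjusted p = 0.028 in limma) between groups that did not overlap. Its probe of lower mean signal differed by 0.09 only (adjusted p = 0.90 in limma), so that the probes of SREBF1 disagreed. SREBF2 had a difference of -0.23 and SCAP, the escort protein, one of 0.30, and neither passed. STARD4, which carries cholesterol between membranes, had values of -0.29, -0.47, -0.15 and -0.18 without DMSO and of 0.16, 0.14, 0.16 and 0.22 with DMSO. Its difference of 0.44 had an adjusted p of 0.018 in limma.

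**Figure D3:**
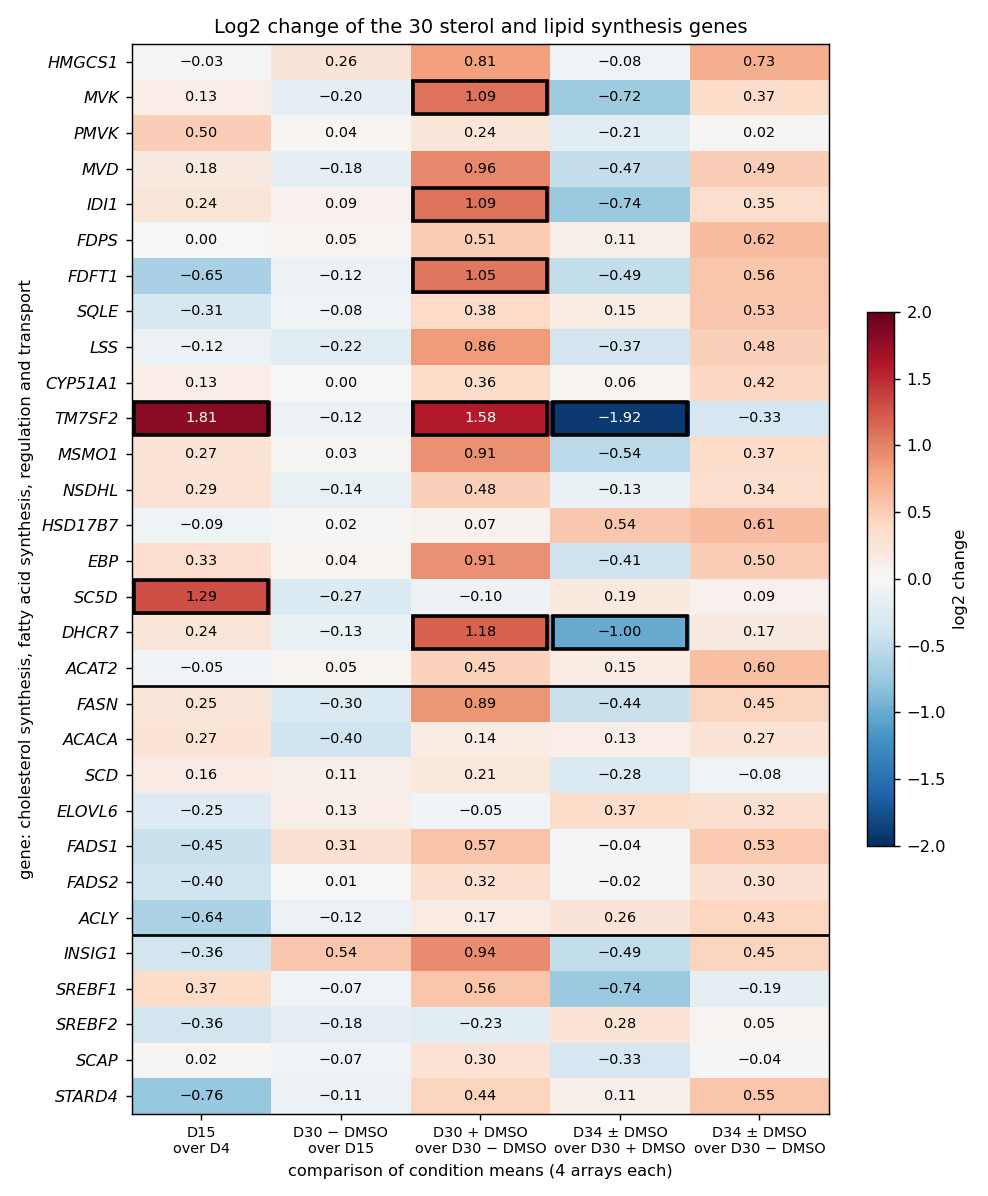
Fitted log2 change of the 30 members in 5 comparisons of condition means, 4 arrays each. Boxed cells were called. TM7SF2 is boxed in 3 comparisons, and no fatty acid gene or gene of regulation and transport is boxed in any.

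Averaged over the genes of a group and set against the mean of D15, the cholesterol genes stood apart on every array with DMSO. The mean log2 difference of the 18 cholesterol genes was 0.81, 0.66, 0.70 and 0.49 on the arrays of D30 + DMSO. On those of D30 − DMSO it was 0.07, -0.04, 0.01 and -0.24. The 7 fatty acid genes had 0.27, 0.27, 0.31 and 0.28 with DMSO and -0.15, -0.07, 0.01 and 0.06 without it. Both groups of genes were thus higher on each array with DMSO than on each without it, and the fatty acid genes by less.

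The difference between both gene means, cholesterol minus fatty acid, averaged 0.38 ± 0.13 (SD, n = 4) in D30 + DMSO and -0.01 ± 0.21 (SD, n = 4) in D30 − DMSO. Replicate 1 of D30 − DMSO, with 0.22, and replicate 4 of D30 + DMSO, with 0.21, met between the groups. From D30 − DMSO to D30 + DMSO this difference grew by 0.39 over all arrays, by 0.24 within slide 3 and by 0.59 within slide 4. Within each of these slides 17 of the 18 cholesterol genes were higher with DMSO, with a median of 0.66 on slide 3 and of 0.81 on slide 4. Each of these slides held 2 arrays of D30 + DMSO and 1 of D30 − DMSO. On slide 4 the latter was replicate 4, whose cholesterol mean of -0.24 was the lowest of its group. The fatty acid genes had medians of 0.33 on slide 3 and of 0.18 on slide 4.

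**Figure D4:**
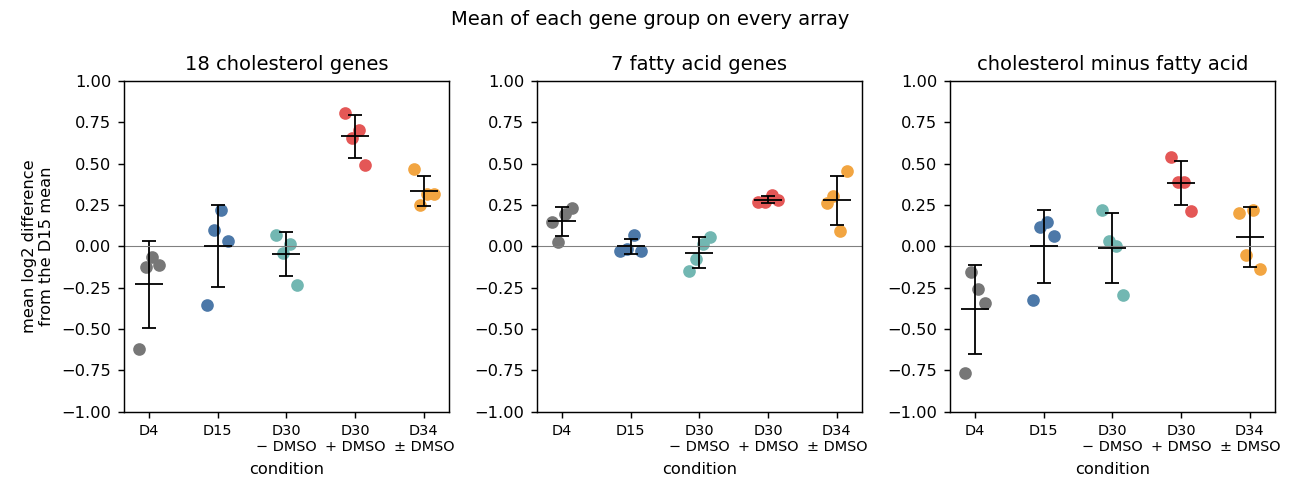
Mean log2 difference from the D15 mean for the 18 cholesterol genes, the 7 fatty acid genes and the former minus the latter, for every array (points) with the mean and SD of the 4 arrays of a condition (lines). The cholesterol genes lie between 0.49 and 0.81 with DMSO and between -0.24 and 0.07 at D30 without it.

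After DMSO was removed for 4 days, TM7SF2 and DHCR7 fell. In D34 ± DMSO against D30 + DMSO, these were 2 of the 18 cholesterol genes called lower, and no member was called higher, whereas 1.99% of all genes were called lower and 5.09% higher. The addition and removal comparisons share the arrays of D30 + DMSO, so a gene that lay high on those arrays by chance differs in both. The D34 ± DMSO cells were also 4 days older than the D30 + DMSO cells. No cells kept in DMSO for these 4 days were measured, so removal and added time in culture cannot be told apart. The median change was -0.29 for the cholesterol genes, -0.02 for the fatty acid genes and -0.33 for the genes of regulation and transport, against -0.04 for all genes. The median of the fatty acid genes was 0.03 after quantile normalization and 0.02 after normexp correction, so its sign depended on the scaling. At an adjusted p below 0.005 and any fold, SREBF1 was also lower, 3 of the 30 members, against 4.74% of all genes.

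TM7SF2 had 1.67, 1.19, 1.28 and 1.61 in D34 ± DMSO, below all its arrays at D30 + DMSO and close to those at D30 − DMSO. The change of -1.92 (SE 0.19) was 3.78-fold, with limma's adjusted p = 8.11e-07. DHCR7 had 5.96, 5.60, 5.68 and 5.89 after removal, a change of -1.003 (SE 0.16) with limma's adjusted p = 0.00012. The DHCR7 call lay at the 2-fold limit. It ended with the slide as a block, with the scan session as a block, with quantile or normexp processing, and without replicate 1 or 3 of D30 + DMSO or replicate 2 or 3 of D34 ± DMSO. The change in those fits was between -0.995 and -0.94, with adjusted p-values below 0.005 in limma.

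SREBF1 had 5.50, 5.04, 5.00 and 5.48 after removal, each below its 4 arrays at D30 + DMSO, with a change of -0.74 and an adjusted p of 0.0036 in limma. The probe of lower mean signal again differed little, with -0.08. MVK and IDI1 had changes of -0.72 (adjusted p = 0.018 in limma) and -0.74 (adjusted p = 0.020 in limma), which did not pass. FDFT1 had -0.49, MVD -0.47, EBP -0.41 and LSS -0.37, and none of them passed. FASN had -0.44 and INSIG1 -0.49, without passing either.

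Other members had changes near 0 on removal. HMGCS1 had 3.31, 3.21, 3.03 and 3.13 in D34 ± DMSO, within the range of D30 + DMSO, with a change of -0.08. FADS1 had 4.76, 4.53, 4.87 and 4.77 and a change of -0.04, and STARD4 had 0.20, 0.29, 0.29 and 0.32 and a change of 0.11. These 3 genes thus stayed near the level they had with DMSO. FDPS, SQLE, CYP51A1 and ACAT2 had changes between 0.06 and 0.15.

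HSD17B7, whose difference on addition was 0.07, had 0.78, 0.99, 0.45 and 0.71 after removal and 0.31, 0.18, 0.32 and -0.04 before it. The groups did not overlap, and the change of 0.54 (SE 0.17) had an adjusted p of 0.032 in limma, which did not pass. The other HSD17B7 probes differed by 0.64 and 0.60. Within slides 3 and 4 the change was 0.37 and 0.57.

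Against cells never exposed to DMSO, D34 ± DMSO cells had no called member, whereas 1.33% of all genes were called higher and 0.186% lower. The never exposed cells are those of D30 − DMSO, which were collected earlier. Past exposure and added time in culture thus cannot be told apart here either. In limma 13 of the 30 members had an unadjusted p below 0.05, as had 3240 of the 22069 genes, and the methods' t-test called no member. The fitted changes were above 0 in 26 of the 30 members, with a median of 0.45 for the cholesterol genes, 0.32 for the fatty acid genes and 0.05 for the genes of regulation and transport, against -0.02 for all genes. On the arrays of D34 ± DMSO the mean of the cholesterol genes relative to D15 was 0.47, 0.25, 0.31 and 0.32, between the values of D30 − DMSO and those of D30 + DMSO. The fatty acid genes had 0.26, 0.31, 0.09 and 0.45, about the level they had with DMSO. The difference of both means was 0.06 ± 0.18 (SD, n = 4). Within the slides, between 15 and 17 of the 18 cholesterol genes were higher in D34 ± DMSO, with medians of 0.28, 0.33 and 0.62 on slides 1, 3 and 4. Each slide held 1 array of D30 − DMSO, against 1, 2 and 1 of D34 ± DMSO. On slide 4 the D30 − DMSO array was replicate 4, the lowest of its group.

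The members with the lowest adjusted p in this comparison were FADS1 and STARD4. FADS1 differed by 0.53 (SE 0.12, adjusted p = 0.013 in limma) and STARD4 by 0.55 (SE 0.13, adjusted p = 0.013 in limma), and in both every withdrawn array lay above every never exposed one. HMGCS1 differed by 0.73 (SE 0.23, adjusted p = 0.088 in limma), FDPS by 0.62 (adjusted p = 0.053 in limma) and HSD17B7 by 0.61 (adjusted p = 0.052 in limma). The groups did not overlap in these 3 genes either, nor in MVD, FDFT1, SQLE, CYP51A1, EBP, ACAT2 and ELOVL6. None of these members was called, and how many of all genes were separated in this way was not counted. TM7SF2 was among the 4 members with a change below 0, at -0.33, and all its withdrawn arrays lay below the never exposed ones. It did not pass, with limma's adjusted p = 0.49.

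**Figure D5:**
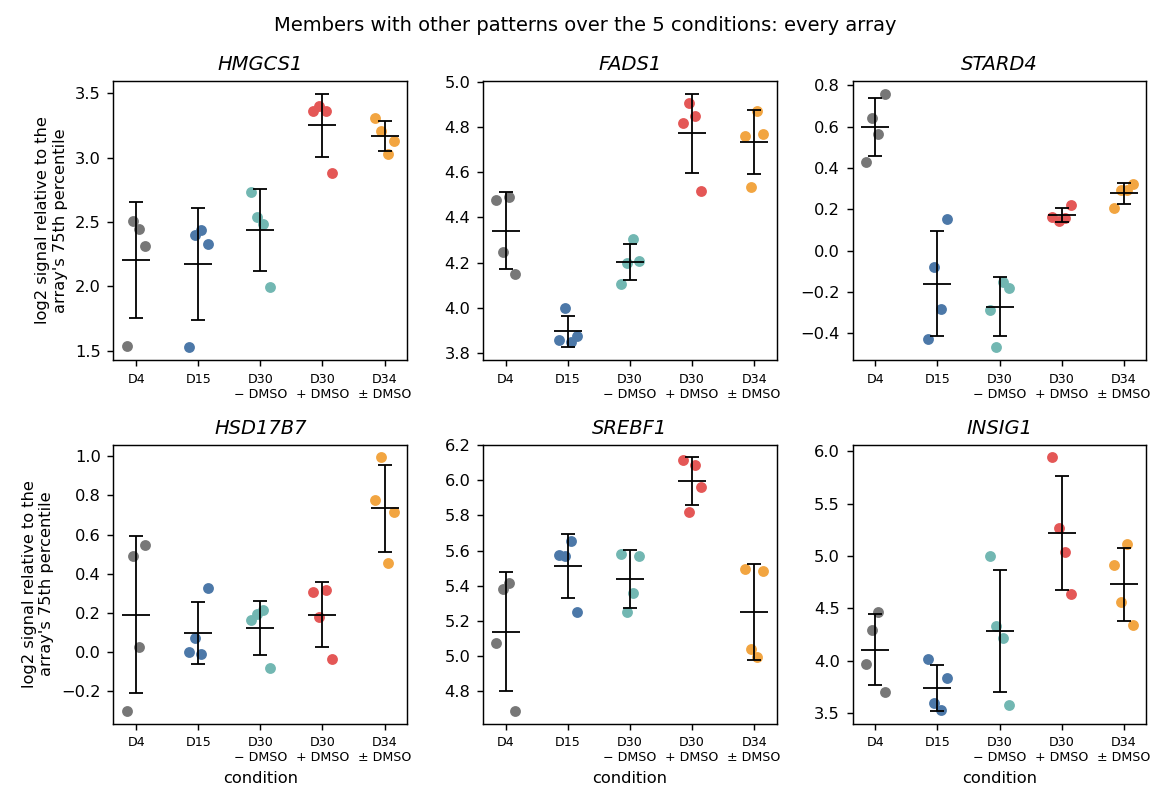
Log2 signal relative to the 75th percentile of the array for 6 members with few or no calls, by condition, with 4 arrays as points and the mean and SD as lines. In HMGCS1, FADS1 and STARD4 the means of D34 ± DMSO lie near those of D30 + DMSO, in SREBF1 all arrays of D34 ± DMSO lie below them, and in HSD17B7 the mean of D34 ± DMSO is the highest.

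Markers of other cell states differed in the same comparisons. All 10 proliferation genes were called higher on removal of DMSO and 8 of 10 in withdrawn against never exposed cells. Their summed signal, relative to the 75th percentile on a linear scale, was between 24.8 and 35.2 in D30 − DMSO, between 19.0 and 26.2 in D30 + DMSO and between 72.8 and 114 in D34 ± DMSO. All 10 were well above background on all arrays of D34 ± DMSO. Of the 8 hepatocyte markers, AMBP was called higher (1.23) and AHSG lower (-2.66) with DMSO. On removal AHSG was called higher, with 3.13, and AMBP had -0.82, which was not called. The summed signal of the 8 was between 2657 and 2832 in D30 − DMSO, between 2970 and 4682 in D30 + DMSO and between 2549 and 3144 in D34 ± DMSO. Of the biliary and progenitor markers 5 of 8 were tested. SOX9 was called higher and SPP1 lower with DMSO, and both calls turned on removal. The summed signal of these 5 was between 235 and 243 in D30 − DMSO, between 175 and 258 in D30 + DMSO and between 189 and 284 in D34 ± DMSO. Of the mesenchymal markers 4 of 8 were tested, and none was called in the comparisons of D30 and D34. Their sum was between 5.75 and 7.70 in D30 − DMSO, between 4.24 and 5.26 in D30 + DMSO and between 6.72 and 10.2 in D34 ± DMSO, so that every array with DMSO lay below every array of the 2 other conditions. All 4 had a fitted change below 0 on addition, with a median of -0.56, and above 0 on removal, with a median of 1.04. The part of these cell states in the changes of the sterol and lipid genes was not tested.

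Between D4 and D15, before any DMSO, 2 of the 30 members were called, a share near that of all genes. TM7SF2 and SC5D were called higher and no member lower, against 5.74% of all genes higher and 3.83% lower. TM7SF2 had -0.35, -0.05, 0.15 and 0.61 at D4 and 1.51, 1.77, 2.11 and 2.19 at D15. The change of 1.81 (SE 0.19) was 3.49-fold, with limma's adjusted p = 9.25e-07. The TM7SF2 call ended under the methods' t-test, run on the same values, with an adjusted p of 0.0062. SC5D had -2.51, -2.55, -2.47 and -2.11 at D4 and -1.01, -1.15, -1.42 and -0.90 at D15. No array of D15 overlapped those of D4, and the change of 1.29 (SE 0.17) was 2.44-fold, with limma's adjusted p = 9.97e-06. With normexp correction the SC5D change was 0.90 and no longer passed 2-fold.

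Some members were lower at D15 by less than 2-fold. STARD4 had 0.43, 0.64, 0.56 and 0.76 at D4 and -0.43, -0.08, -0.28 and 0.15 at D15, a change of -0.76 (SE 0.13) with limma's adjusted p = 0.00015. FDFT1 had a change of -0.65 (adjusted p = 0.0089 in limma), FADS1 of -0.45 (adjusted p = 0.010 in limma) and FADS2 of -0.40 (adjusted p = 0.033 in limma). PMVK had one of 0.50 (adjusted p = 0.015 in limma). The median change was 0.15 for the cholesterol genes, -0.25 for the fatty acid genes and -0.36 for the genes of regulation and transport, against 0.02 for all genes. The cholesterol genes were low on replicate 1 of D4 and of D15, both on slide 2, with means of -0.62 and -0.35. On the other arrays of D4 they lay between -0.13 and -0.06 and on those of D15 between 0.03 and 0.22. HMGCS1 shows this most plainly, with 1.54 on D4 replicate 1 and 1.53 on D15 replicate 1 against values between 2.32 and 2.51 on the other 6 arrays. Without the arrays of slide 2, an alternative added after the data were seen, the counts of members called in each group and comparison were within 1.5 times of those given.

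From D15 to D30 − DMSO no member was called in either direction, whereas 0.0136% of all genes were called higher and 0% lower. In limma 2 members had an unadjusted p below 0.05, as had 645 of the 22069 genes. They were FADS1 with 0.31 and ACACA with -0.40, and the methods' t-test on the same values called no member. The median change was -0.04 for the cholesterol genes and 0.01 for the fatty acid genes. Within slides this comparison rested on 1 array of D30 − DMSO, against 1 of D15 on slides 2 and 3 and 2 on slide 4. The D15 array of slide 2 was replicate 1, with the low cholesterol mean of -0.35. The D30 − DMSO array of slide 4 was replicate 4, the lowest of its group with -0.24. A difference between slides thus cannot be told apart from a difference between single arrays. Of the 18 cholesterol genes 16 were higher at D30 − DMSO within slide 2, 8 within slide 3 and 0 within slide 4, with medians of 0.29, -0.03 and -0.35.

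Over the 5 conditions, limma's F-test called 1 member, against 5.41% of all genes. The threshold was a Bonferroni-adjusted p under 0.001, together with condition means that spanned over 3-fold. This was TM7SF2, lowest at D4, highest in D30 + DMSO and 9.66-fold apart between them.

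Genes of the same pathway that are no members were taken from 4 further lists. Among 13 other sterol genes tested, 1 was called higher with DMSO and 1 lower on removal, not reported by name here. INSIG2, the paralog of INSIG1, was not called, with changes of 0.68 on addition and -0.58 on removal, both under 2-fold.

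Of 15 other lipogenic genes tested, 2 were called higher with DMSO and 6 lower on removal. Their median change was 0.56 on addition, against 0.84 for the cholesterol genes, and 13 of the 15 had a fitted change above 0. On removal it was -0.89, against -0.29 for the cholesterol genes, and 13 had a fitted change below 0. ACSS2, which makes acetyl-CoA from acetate, had 1.39 on addition and -1.15 on removal. DGAT2, which completes triglycerides, had 1.90 and -1.96. Those called lower on removal but not higher on addition were GPAM (-1.12) and AGPAT2 (-1.07), which add the first acyl chains to glycerol phosphate, DGAT1 (-1.12), and MID1IP1 (-1.03), which activates the acetyl-CoA carboxylases. From D4 to D15, ACACB, AGPAT2, DGAT1 and DGAT2 were called higher, with changes between 1.11 and 2.05.

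None of the 10 genes of SREBP processing, which include the proteases MBTPS1 and MBTPS2, was called in any comparison. MBTPS2 had 0.72 on addition (adjusted p = 0.0027 in limma), under 2-fold. Of 10 lipogenic transcription factors, MLXIPL, the carbohydrate-responsive factor of lipogenesis, was called higher from D4 to D15 with 2.68, and NR1H3, the oxysterol receptor, with 1.38. With DMSO MLXIPL differed by 1.01 (adjusted p = 0.043 in limma). Of the NF-Y subunits, NFYC differed by -0.62 (adjusted p = 0.0045 in limma) on addition and by 0.67 on removal, both under 2-fold, NFYA by -0.03 and NFYB by -0.37 on addition.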

How the data were processed

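The authors deposited, per array, Feature Extraction output (version 10.7.1.1 per the file headers) with a processed signal, an intensity that is background-subtracted on each array without a common scale, median spot and local background intensities, and flags for spots well above background, saturated or non-uniform. A deposited matrix holds the authors' log2 values per probe. They match the log2 processed signal scaled to the 75th percentile, apart from 1 baseline per probe, with a median absolute difference of 3.53e-07 over 21300 probes.

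Here, outlier spots were dropped, spots of a probe were averaged, and the signals of all arrays were brought to a common 75th percentile, floored at 1 and logged (base 2). The 26351 probes retained were well above background, in some condition, on every array that kept a value for the probe. Each gene was represented by its brightest probe on average. One model of 5 condition means over 20 arrays was fitted with limma 3.58.1 in R 4.3.3 (with the data.table package, version 1.17.8). The thresholds are those of the study's methods, with limma's moderated test in place of their t-test. The calling step was tested on simulated data with noise independent between arrays and changes larger than that of any member. That test therefore does not bear on the calls given here. No test was run on the means over gene groups. Replicates are 4 independent experiments, and the slide, scan session and replicate number were tried as blocks. The members, lists and alternatives were chosen with earlier results of these data known. The members named are all 30. Of the other lists the called genes with the largest changes are named, up to 4 per list and comparison, and MBTPS2, INSIG2 and the NF-Y subunits were named after their values were seen. Some genes of those lists are not reported here. Promoters come from RefSeq on GRCh38.p14. The alternatives were quantile and normexp processing (offset of 50), the deposited matrix, other filters on dim probes, the mean of all probes, a floor of 10, the methods' t-test, a fit restricted to the 2 conditions compared, an adjusted p below 0.05, and each array left out. An adjusted p below 0.005 at any fold and the omission of slide 2 were added after the data were seen.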

Additional observations from a re-analysis of the deposited data

Results flagged for a closer look

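Of 150 sets of 4 arrays, 1 per member and condition, 8 had a highest or lowest array set apart from the others by Dixon's criterion, which marks about 1 set in 20 by chance. HMGCS1 was low at D15 replicate 1, with 1.53 against values from 2.33 to 2.43 on the other arrays, and low at D30 + DMSO replicate 4, with 2.88 against 3.36 to 3.40. IDI1 was high at D30 + DMSO replicate 3, with 4.85 against 4.51 to 4.56, and at D34 ± DMSO replicate 1, with 4.11 against 3.75 to 3.81. PMVK was low at D34 ± DMSO replicate 2, with 3.30 against 3.76 to 3.85. CYP51A1 was low at D30 − DMSO replicate 4, with 4.26 against 4.83 to 4.91, and so was HSD17B7 on the same array, with -0.08 against 0.16 to 0.21. FADS1 was high at D15 replicate 2, with 4.00 against 3.85 to 3.88.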

How the results depend on the processing

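The TM7SF2 calls on addition and removal and the DHCR7 call on addition were kept in every fit run at the adjusted p of 0.005, and no call changed direction. Each other call of a member between 2 conditions ended in at least 1 of the fits. On addition of DMSO, 5 cholesterol genes were called, but 3 with the slide as a block and 3 by the methods' t-test, which ended the calls of IDI1 and MVK, and between 3 and 5 when 1 array was left out. The lowest count came without D30 − DMSO replicate 4, which ended the calls of IDI1 and MVK. On removal, 2 cholesterol genes were called, but 1 after quantile normalization, 1 after normexp correction, 1 with the slide and 1 with the scan session as a block, and between 1 and 2 when 1 array was left out. From D4 to D15, 1 cholesterol gene was called after normexp correction, without SC5D, and 1 by the methods' t-test, without TM7SF2, in place of 2. With the scan session as a block, 1 gene of regulation and transport, INSIG1, was called on addition. At an adjusted p below 0.05 and any fold, the counts on addition were 9 cholesterol genes, 2 fatty acid genes and 3 of regulation and transport. On removal they were 5, 0 and 1, from D4 to D15 4, 2 and 1, and in withdrawn against never exposed cells 0, 1 and 1, in the same order. All 14 members on addition were higher. On removal 1 was higher and 5 lower, from D4 to D15 3 were higher and 4 lower, and the 2 in withdrawn cells were higher. Of all 22069 genes, 4036 reached this threshold in either direction on addition and 4725 on removal. From D4 to D15 5242 reached it, and in withdrawn against never exposed cells 1029. At an adjusted p below 0.005 and any fold, 8 cholesterol genes and 2 fatty acid genes were called on addition, all higher, against 3.63% of all genes. On removal 2 cholesterol genes and 1 gene of regulation and transport were called, all lower, against 4.74% of all genes. From D4 to D15 the counts were also 2, both higher, and 1, which was lower. The share of all genes at this threshold was not counted for D4 to D15. With the 2-fold limit it was 5.74% higher and 3.83% lower. The change from D15 to D30 − DMSO of the cholesterol minus fatty acid mean was 0.36 within slide 2 and -0.40 within slide 4, and the cause was not tested. With the replicate block the counts stayed at 5 cholesterol genes called on addition, 2 on removal and 2 from D4 to D15, and it changed no other call. Deviations of same-numbered arrays correlated with a median r of 0.28, from -0.33 to 0.80, so the numbers were not taken to pair the arrays. No scaling moved the median of all genes by over 0.1. D30 + DMSO arrays lie only on slides 3 and 4, which limits the values within slides. All values within slides rest on 1 or 2 arrays of a condition.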
